A study of Mus musculus with 35 samples.

Results

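The set described here holds 11707 distal regions of open chromatin that were called in all 12 peak lists of an ATAC-seq study of mouse blood. ATAC-seq marks accessible DNA by the insertions of the Tn5 transposase. The members were chosen from the 42459 merged regions of the list for haematopoietic stem cells (HSCs) of knockout mice at postnatal day 7 (P7), the shortest of the 12 lists. A region was selected by 3 criteria: an overlap of at least 1 bp with a region of each of the other 11 lists, a width under 1500 bp, and a distance of over 10 kb from either end of every protein-coding gene. Presence in all lists, width and distance are therefore not findings, and the strength of a call in each list is described with no test because presence rests on the same values.

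HSCs and haematopoietic progenitor cells (HPCs), their more differentiated descendants, were taken from mice of the B6 background. Set 1, whose adult libraries are titled WT and which has no genotype entry of its own, covered HSCs of E16.5 fetuses (3 libraries), of P14 mice (3) and of adults aged 8 weeks (5), and HPCs at E16.5 (3), P7 (3), P14 (2), P21 (2) and 8 weeks (3). Set 2 covered P7 only: wild-type HSCs (3) and HPCs (3), and HSCs (2) and HPCs (3) from mice with a knockout of Ifnar (type I interferon receptor), which the label spells Infnar. Among the 3 libraries of knockout HPCs, 1 has a title with the wild-type code U3, whereas its description gives Y3, a code of the knockout series. This doubt touches each comparison of knockout and wild-type HPCs. The libraries of a group shared 1 pooled list, so each value holds for n = 1 list per group and has no spread between replicates. The sources used here give neither the read depth of a library nor whether animals were pooled.

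Distal accessible regions include enhancers, which are bound by transcription factors and raise the activity of genes that can lie far away. They also include sites of the insulator protein CTCF, which anchors chromatin loops together with cohesin, and promoters of non-coding RNAs or of alternative transcripts. In blood, enhancers are typically bound by factors of the RUNX, ETS, GATA and E-box binding families, among them Runx1, Erg, Gata2 and Tal1.

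The lists held between 42459 and 91043 regions. By their names they were of different kinds: those of set 2 carry the label optimal peak and those of set 1 the label filt. The kind of list cannot be told apart from the set, and its part in differences between the sets was not tested. For 12 of the 35 libraries, all of set 1, the description names the peak list of another group than the title does. This touched 3 of 3 libraries of P14 HSCs, 2 of 2 of P14 HPCs, 2 of 2 of P21 HPCs, 3 of 5 of adult HSCs, 1 of 3 of fetal HPCs and 1 of 3 of P7 HPCs of set 1, and lists are called here by their own names. Of 13 markers of HSCs, HPCs and the blood lineage, 9 to 12 had a region within 1 kb of a gene end in each list. Ly6a, which encodes the Sca-1 antigen by which such cells are commonly sorted, had none in any list. Of 5 markers of red cell precursors, Klf1 and Epor had one in every list, whereas Gata1, Alas2 and Slc4a1 had none in any. Of 10 markers of endothelium, 5 to 9 had one in each list, a share near that of the blood markers in several lists. Of 10 markers of stroma, 6 to 8 had one in the lists of set 1 and 2 to 4 in those of set 2. Of 10 markers each, 2 to 5 had one for hepatocytes, 2 to 6 for B cells and 1 to 6 for macrophages. For T cells, 4 to 7 of 9 markers had one. The part of other cell types in the results was not tested.

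The label of a distal region held for most members but not all. The gene table used gives the outermost ends of each gene, and an internal start of a long gene can lie far from both. Starts of protein-coding RefSeq transcripts lay within 1 kb of 446 members (3.81%, 95% interval 3.47 to 4.17), and 368 members held such a start. Starts of long non-coding RNAs (lncRNAs) lay within 1 kb of 581 members (4.96%), and 10718 members (91.6%) had neither kind of start within 1 kb. Among these internal promoters were the second promoter of Runx1, a start of Erg and the start of Stag1, a subunit of cohesin.

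RefSeq promoter windows, which run from 250 bases before a start to 50 bases after it, lay wholly inside 437 members. The 6 windows below (GRCm38, 300 bases each, written 5′ to 3′ on the gene's strand) are shown because they are parts of members whose sequence was at hand, and because they span the range of calls from middling to near the top of every list. Capitals mark matches to 6 motifs, searched on both strands. RUNX factors were represented by the letters TGTGGT of their core site. For the ETS family, to which Erg belongs, the search used the letters AGGAAGT instead. The GATA motif, named after the family of Gata2, was searched as AGATAA in this case. AP-1, the dimer of Fos and Jun proteins, was represented by TGANTCA with any base in its middle. The E-box variant bound by many basic helix-loop-helix proteins in blood was searched as CAGCTG here. The CTCF core had 12 letters, some of them free.
Runx1, internal start, chr16:92697280-92697579, minus strand: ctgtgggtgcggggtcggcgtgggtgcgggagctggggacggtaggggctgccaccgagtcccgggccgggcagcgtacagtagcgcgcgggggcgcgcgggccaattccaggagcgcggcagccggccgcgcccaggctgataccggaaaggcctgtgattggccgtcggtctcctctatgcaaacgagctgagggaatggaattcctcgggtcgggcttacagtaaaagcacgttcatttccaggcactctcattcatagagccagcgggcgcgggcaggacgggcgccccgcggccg
Erg, internal start, chr16:95459299-95459598, minus strand: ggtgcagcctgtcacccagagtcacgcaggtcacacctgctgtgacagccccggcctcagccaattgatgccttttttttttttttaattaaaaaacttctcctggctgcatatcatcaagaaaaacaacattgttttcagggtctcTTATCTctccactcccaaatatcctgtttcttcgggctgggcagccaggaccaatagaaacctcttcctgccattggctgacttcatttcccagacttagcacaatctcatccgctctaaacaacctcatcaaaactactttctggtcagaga
Stag1, chr9:100643198-100643497, plus strand: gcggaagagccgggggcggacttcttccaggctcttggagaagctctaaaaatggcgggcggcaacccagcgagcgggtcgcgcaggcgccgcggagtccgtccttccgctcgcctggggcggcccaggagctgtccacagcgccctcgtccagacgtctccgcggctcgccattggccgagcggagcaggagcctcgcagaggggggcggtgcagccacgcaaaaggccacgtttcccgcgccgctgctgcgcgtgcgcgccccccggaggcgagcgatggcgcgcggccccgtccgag
Chaserr, lncRNA, chr7:73558346-73558645, minus strand: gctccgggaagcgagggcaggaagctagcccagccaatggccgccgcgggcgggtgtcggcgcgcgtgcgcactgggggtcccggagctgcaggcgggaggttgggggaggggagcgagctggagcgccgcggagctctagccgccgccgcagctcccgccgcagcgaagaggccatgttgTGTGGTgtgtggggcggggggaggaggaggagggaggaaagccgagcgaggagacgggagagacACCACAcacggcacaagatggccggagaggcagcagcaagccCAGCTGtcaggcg
Kifap3, chr1:163779333-163779632, plus strand: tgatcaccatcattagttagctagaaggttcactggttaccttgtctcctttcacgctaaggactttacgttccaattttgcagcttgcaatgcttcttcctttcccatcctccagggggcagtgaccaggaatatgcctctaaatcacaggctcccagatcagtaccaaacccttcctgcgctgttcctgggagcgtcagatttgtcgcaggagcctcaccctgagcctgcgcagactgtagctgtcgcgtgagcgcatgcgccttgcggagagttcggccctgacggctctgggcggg
Rassf5, internal start, chr1:131200136-131200435, minus strand: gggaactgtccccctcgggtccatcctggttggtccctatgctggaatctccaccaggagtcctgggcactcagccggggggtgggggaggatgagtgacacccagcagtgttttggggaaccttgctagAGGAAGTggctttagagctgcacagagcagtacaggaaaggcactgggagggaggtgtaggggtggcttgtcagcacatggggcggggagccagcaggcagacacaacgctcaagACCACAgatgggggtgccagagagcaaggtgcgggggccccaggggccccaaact

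The Runx1 window held 69.0% G and C with 35 CpG pairs and no match to the 6 motifs. The Erg window held 46% G and C with 4 CpG pairs and 1 match to GATA. The Stag1 window was the richest of the 6 with 73.7% G and C and 43 CpG pairs. The Chaserr window, at the start of a lncRNA next to the chromatin remodeller gene Chd2, matched RUNX and the E-box. The Kifap3 window, of a gene for a kinesin-associated protein, held 55% G and C and no match, and its member was at percentiles from 97.6 to 99.9. Rassf5, which encodes a RAS effector of leukocyte adhesion, had an ETS and a RUNX match. A match is a description of letters and does not show binding, and a window with no match can hold a variant of a motif.

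Over all 496 windows inside members (268 of protein-coding genes and 228 of lncRNAs), the E-box was found in 23.8% (95% interval 20.1 to 27.8), RUNX in 18.5% (15.2 to 22.3), ETS in 15.5% (12.4 to 19.02), GATA in 6.25% (4.29 to 8.75), AP-1 in 6.05% (4.12 to 8.52) and the CTCF core in 4.44% (2.80 to 6.64). In the 7367 windows inside narrow regions at gene ends that were also called in every list, these shares were 14.0%, 11.1%, 8.58%, 3.77%, 3.49% and 3.01%. In all 32619 windows they were 16.4%, 16.6%, 9.38%, 11.2%, 7.85% and 2.44%. For the E-box, RUNX, ETS, GATA and AP-1 the interval of the members lay above the share at gene ends. The intervals of the E-box and ETS also lay above the share of all windows, as did that of the CTCF core, which included the share at gene ends. The interval of GATA lay below the share of all windows, and those of RUNX and AP-1 included it. Base composition also differed between these sets, at a median G and C content of 59.3% in members, 64% at gene ends and 53% in all windows. In the order of G and C content only GATA and AP-1 fell steadily, whereas the other motifs were highest in members. The part of base composition in these shares was not tested. The kind of gene differed too, since lncRNAs gave 228 of the 496 windows in members and 623 of the 7367 at gene ends. In the 268 windows of protein-coding genes alone, the E-box was at 20.9% (16.2 to 26.3) beside 13.8% at gene ends and 15.7% of all coding windows, and ETS at 13.4% (9.59 to 18.1) beside 8.59% and 9.10%. For these motifs the interval still lay above both. RUNX was at 12.7% (8.95 to 17.3), GATA at 5.22% (2.89 to 8.61), AP-1 at 4.10% (2.07 to 7.23) and the CTCF core at 1.87% (0.608 to 4.30). The intervals of these motifs included the shares at gene ends of 11.2%, 3.93%, 3.47% and 2.95%. That of GATA lay below the 9.68% of all coding windows, and the others included the share of all coding windows. In the 228 windows of lncRNAs, the interval of each motif lay above the share at gene ends. The CTCF core was there at 7.46% (4.40 to 11.7), beside 3.69% at gene ends and 2.58% of all lncRNA windows. RUNX was at 25.4% (19.9 to 31.6), beside 10.6% and 20.1%, and its interval included the share of all lncRNA windows. So did that of AP-1, at 8.33% (5.09 to 12.7) beside 9.31% of all lncRNA windows. The interval of GATA, at 7.46% (4.40 to 11.7), lay below the 14.0% of all lncRNA windows. The intervals of the CTCF core, ETS and the E-box lay above the share of all lncRNA windows. Windows that share a start region overlap.

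Of the narrow regions of the P7 knockout HSC list over 10 kb from gene ends, 60.3% were called in every list, which is the share the rule itself sets. The same share was 85.3% of 12483 narrow regions within 1 kb of a gene end and 61.9% of 10329 regions between 1 and 10 kb. A further 2780 narrow distal regions were called in 11 lists, and for 870 of them (31.3%) the missing list was that of P7 wild-type HSCs. By chromosome the share called everywhere ran from 49.9% (47.0 to 52.8) on chromosome 11 to 66.2% (63.3 to 69.1) on chromosome 10.

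At the limits of the rule, the members just inside the distance limit lay 10004 bp from an end of Tiparp and of Ndnf, and the regions just outside lay 9998 bp from Noct and 9996 bp from Wdr1. In the P7 knockout HSC list, where 0 marks the weakest and 100 the strongest region, their percentiles were 29.4 and 20.6 inside and 49.6 and 36.6 outside. Just inside the width limit was a member of 1488 bp near Zfp958, with regions of 1514 bp near Itprid2 and 1522 bp near Impact just outside.

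Each region was placed in its list by the highest -log10 p of its peaks and given a percentile, from 0 for the weakest to 100 for the strongest region of that list. The median percentile of the members was 78.2 in fetal HSCs, 74.5 in P14 HSCs and 78.4 in adult HSCs. In P7 HSCs it was 60.3 for wild type and 58.2 for the knockout. In HPCs it was 77.5 in the fetus, 77.2 at P7 in set 1, 79.9 at P14, 73.5 at P21 and 78.7 in adults, and in set 2 it was 72.1 for wild type and 68.4 for the knockout. The 4 lowest medians came from the 4 shortest lists, those of set 2, which by their names are also of another kind than those of set 1. The members made up 27.6% of the shortest list and 12.9% of the fetal HSC list. Narrow regions called everywhere within 1 kb of a gene end had higher medians in each list, between 74.9 and 89.5.

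**Figure D1:**
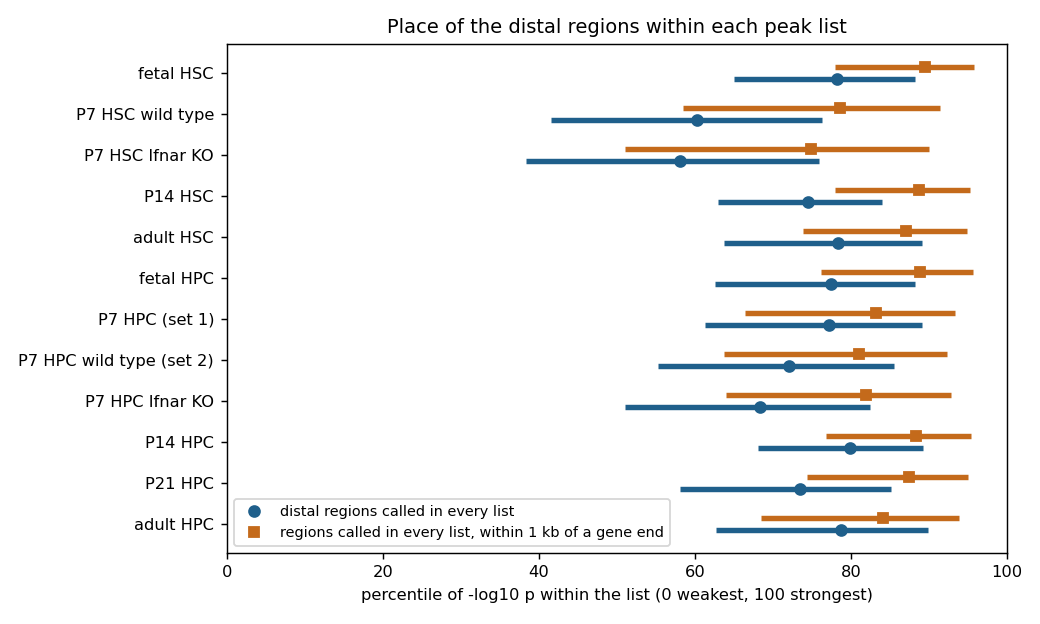
Percentile of -log10 p within each of the 12 peak lists, with the median as a point and the quartiles as a bar, for the distal regions (circles) and for narrow regions called in every list within 1 kb of a gene end (squares). In each list the median of the distal regions, 58.2 to 79.9, lies left of that of the regions at gene ends, 74.9 to 89.5.

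Few members were strong everywhere. Of the 28974 regions called in every list without regard to width or distance, 8.12% lay in the upper 10% of every list, and 368 members (3.14%) did so. By fold over background in place of -log10 p, 536 members (4.58%) lay in the upper 10% of every list beside 5.33% of all regions called everywhere, and 157 members were in both counts. The upper 50% of every list held 5132 members (43.8%), and no member was in the lower 25% of all lists. Over the 12 lists the percentile of a member spanned a median of 38.5 points, with 604 members at 10 points or less and 222 at over 80 points. This span includes differences between lists of unequal length. The lowest percentile came from the P7 knockout HSC list in 30.3% of members and from the P7 wild-type HSC list in 21.7%, the shortest lists. The part of list length in the span was not tested.

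The member with the highest median percentile lay inside Uggt2, which encodes an enzyme of glycoprotein folding control (chr14:119007206-119007810). Its rank was 19 in fetal HSCs, 109 in P7 wild-type HSCs, 120 in P7 knockout HSCs, 25 in P14 HSCs and 12 in adult HSCs, and between 4 and 68 in the 7 HPC lists. The member inside Agpat3, an acyltransferase of phospholipid synthesis (chr10:78297715-78298584), was at rank 3, 6 and 5 in P7 wild-type, P7 knockout and P14 HSCs and at rank 322 and 195 in fetal and adult HSCs. It was at rank 2 in P7 wild-type HPCs of set 2 and at rank 489 in P21 HPCs. The other members of the top 10 lay inside or near Ppa2, Frg1, Akr1e1, Ogfrl1, Cast, Man1a, Zfp607b and Zfp934. Those in Cast, the calpain inhibitor gene, and near Zfp934 held a RefSeq start of a coding transcript.

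The Stag1 window lay in a member (chr9:100642737-100643732) at percentiles 96.96, 99.4, 98.9, 99.04 and 97.9 in fetal, P7 wild-type, P7 knockout, P14 and adult HSCs and between rank 227 and 1348 in the HPC lists. The Chaserr member (chr7:73558258-73559153) was at rank 138 to 979 in the HSC lists and 203 to 1074 in the HPC lists. The Runx1 internal start lay in a member (chr16:92697149-92697658) at percentiles 61.8, 57.9, 42.8, 71.7 and 66.0 in the same order of HSC lists and 54.8 to 75.1 in HPCs. Its strongest summit in the P7 knockout HSC list was at -104 from that start. These promoter members thus ranged from the middle of the lists to near the top.

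Members near coding starts were somewhat stronger than the others. The median over members of the median percentile was 82.8 (quartiles 69.5 and 91.5) for the 446 members within 1 kb of a coding start and 74.0 (61.5 and 84.6) for the 10718 members with no start within 1 kb. In P7 HPCs of set 1 the medians of the 2 classes were 81.4 and 77.0, and in P7 wild-type HSCs they were 73.3 and 59.5.

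The lowest members were those inside Taf4, a subunit of the basal transcription machinery, near Mb and A1cf, near Ergic1 and inside Vgll4. The Taf4 member (chr2:179934228-179934808) was at percentile 20.3, 17.3, 7.34, 40.8 and 6.56 in fetal, P7 wild-type, P7 knockout, P14 and adult HSCs and between 1.72 and 21.7 in HPCs. The largest of these values came from the P14 HSC list.

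The largest ranges were found near or in Csrnp3, Zfat, Gypc, Fat3, Adam6b, Nrxn3, Fam174a and Slit2. Gypc, which encodes the red cell membrane protein glycophorin C, had a member in its body (chr18:32542274-32542838) at percentile 90.5, 84.5, 76.7, 92.1 and 97.2 in fetal, P7 wild-type, P7 knockout, P14 and adult HSCs. In HPCs it was at 85.0 in the fetus, 49.1 at P7 in set 1, 20.8 and 35.6 for wild type and knockout in set 2, 43.7 at P14, 35.02 at P21 and 0.951 in adults. Only the fetal HPC list overlapped the HSC lists. The Csrnp3 member (chr2:65818166-65818315) was 150 bp wide in the P7 knockout HSC list, where its percentile was 0.150, and at 66.3 to 98.6 in the other lists. The Zfat member likewise stood at 2.21 in that list alone and at 92.8 to 99.1 elsewhere. The largest distance of a summit from that of the knockout list was 364 bp for Csrnp3 and 736 bp for Zfat, so the peak of that list did not stand at the same place as those of some other lists.

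For most members the peak stood at the same place in all lists. In 8819 members (75.3%) the summits of the strongest peak in the other 11 lists all lay within 50 bp of that in the P7 knockout HSC list, and in 10350 (88.4%) within 150 bp. The median of the largest shift was 28 bp. In 313 members (2.67%) a summit lay over 500 bp away. The median width of the members was 527 bp in the P7 knockout HSC list, beside 398 bp for 7705 narrow distal regions that were missing from some list and 784 bp for the regions at gene ends.

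The order of the members by -log10 p was compared between lists with Spearman's rho over 11707 members, as a description, since the lists share a peak caller and the members share their sequence. In the 4 lists of set 2 and the P14 HSC list rho was between 0.65 and 0.93, with a median of 0.74. In the other 7 lists it was between 0.63 and 0.91, with a median of 0.78. Between these blocks rho was lower, at 0.34 to 0.68 with a median of 0.51. The blocks were picked after the values were seen.

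P7 wild-type and knockout HPCs had the highest rho of any pair, 0.93, and P7 wild-type and knockout HSCs had 0.89. P14 HSCs of set 1 stood at 0.88 with P7 wild-type HSCs of set 2 and at 0.59 with adult HSCs of set 1. Fetal and adult HSCs, at opposite ends of the age range, stood at 0.81. The P7 wild-type HPCs of set 2 and the P7 HPCs of set 1, which share cell type and age but not the kind of list, stood at 0.60. Each block thus held lists of both cell types. The P14 HSC and P14 HPC lists lay in different blocks, as did the P7 HPCs of set 1 and the P7 lists of set 2. Fetal HSCs and HPCs lay in the same block, with a rho of 0.82, as did adult HSCs and HPCs, with 0.77. All 3 libraries of P14 HSCs have descriptions that name another list.

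**Figure D2:**
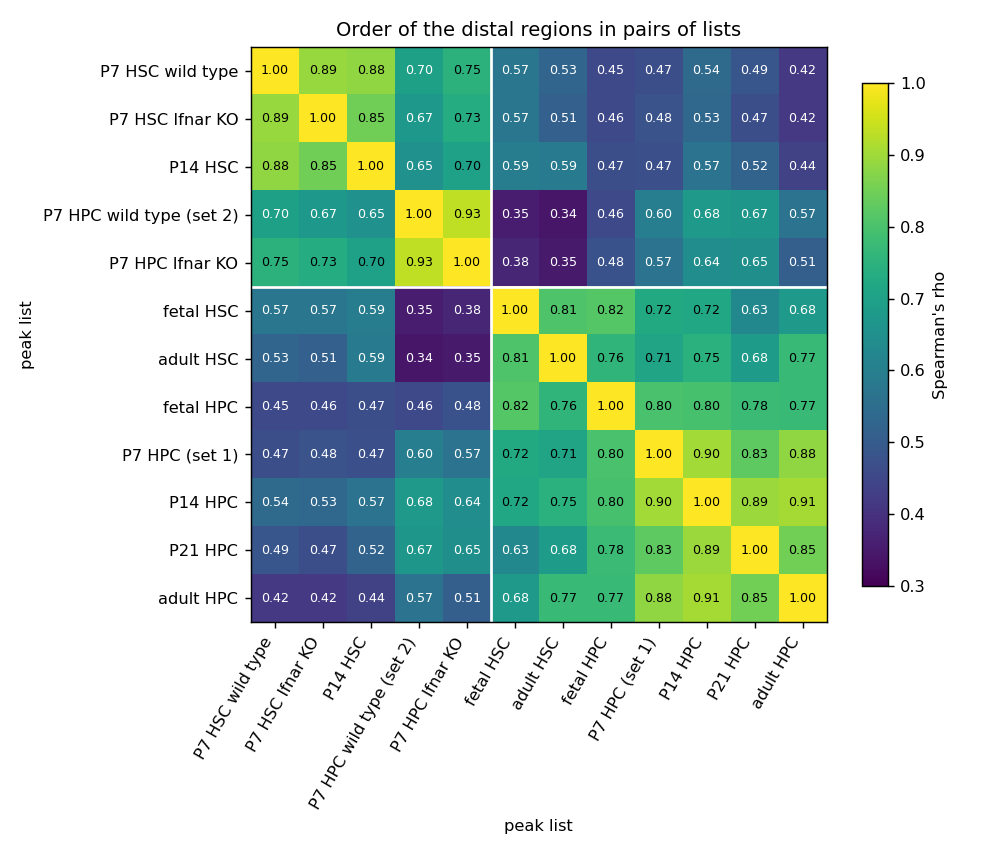
Spearman's rho between the orders of the 11707 distal regions by -log10 p in each pair of lists, with white lines between the 4 lists of set 2 with P14 HSCs (first 5) and the other 7 lists. Pairs across the white lines run from 0.34 to 0.68, below the medians of 0.74 and 0.78 within the blocks.

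The distance from gene ends had a median of 34.8 kb (quartiles 18.5 and 73.1) and reached 1812 kb. Bodies of protein-coding genes held 6269 members (53.5%, 95% interval 52.6 to 54.5), close to the 53.7% (52.6 to 54.8) of narrow distal regions that were missing from some list. Members over 500 kb from gene ends were in a gene body in 31 of 115 cases (27.0%), and those at 10 to 20 kb in 1871 of 3314 (56.5%).

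How strong the distant members were depended on the list. Within each list the members were ordered from 0 (weakest member) to 100 (strongest member), which gives each list the same number of places. The 115 members over 500 kb from gene ends had a median order of 80.04 in fetal HSCs, 79.3 in adult HSCs, 80.1 in fetal HPCs, 76.5 in P7 HPCs of set 1, 71.0 in P14 HPCs, 79.3 in adult HPCs and 58.4 in P21 HPCs. The same members stood at 47.8 and 49.2 in wild-type and knockout P7 HSCs, at 42.3 and 38.8 in wild-type and knockout P7 HPCs of set 2 and at 44.9 in P14 HSCs. For the 710 members over 200 kb away the median orders were 63.9 to 67.2 in the lists of fetal and adult HSCs and of fetal, P7 (set 1), P14 and adult HPCs. They were 55.0 in P21 HPCs and 40.2 to 45.3 in the lists of set 2 and of P14 HSCs.

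These orders depended in size on the value used. By fold over background, the members over 200 kb away stood at 65.3 to 69.1 in the first 6 lists, 61.9 in P21 HPCs and 55.4 to 57.9 in the other 5, so the gap was smaller and no list was below 50. The P7 HPC lists of set 1 and set 2, of the same age and cell type but of different kinds by their names, fell on opposite sides. The P14 HSC list, of the kind of set 1, stood with the lists of set 2, at 57.9 by fold. The part of the kind of list in these orders was not tested.

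**Figure D3:**
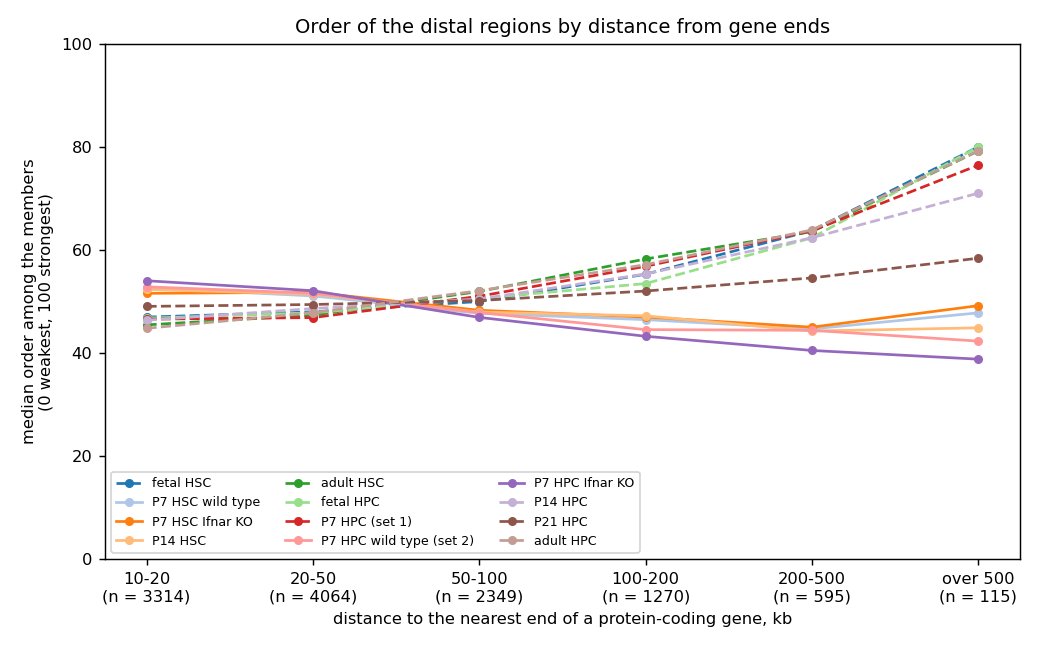
Median order among the distal regions (0 weakest, 100 strongest by -log10 p) in 6 classes of distance from the nearest gene end, 1 line per list, solid for the 4 lists of set 2 and P14 HSCs and dashed for the other 7. The lines lie close together below 100 kb and spread from 38.8 to 80.1 for the 115 regions over 500 kb away.

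The most distant member lay 1812 kb from G6pd2 (chr5:59996585-59997162) and stood at percentile 91.5, 31.8, 24.7, 50.7 and 90.8 in fetal, P7 wild-type, P7 knockout, P14 and adult HSCs. In HPCs it ran from 79.3 in the P7 knockout list to 99.6 in adults. A member 1411 kb from Cntnap5b (chr1:101901922-101902644) was at 82.3 to 99.1 in the HSC lists and 83.2 to 99.6 in the HPC lists. Zeb2, a transcription factor gene of HSC differentiation, was the nearest gene of 2 distant members. The one at 1253 kb (chr2:46370906-46371412) had a median percentile of 86.97, and the one at 1326 kb (chr2:46443090-46443660), 185 bp from the start of the lncRNA Gm13470, had 74.6.

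Joined where the gap was small (the largest gap joined was 12.498 kb), 3822 members (32.6%) formed 1634 clusters, and 36 clusters had 5 members or more. The largest held 8 members over 37.6 kb in Prkag2, a regulatory subunit of the energy sensor AMPK (chr5:24973230-25010856), with median percentiles from 65.3 to 85.5. Clusters of 7 lay in Lims1, an adaptor of integrin signalling (chr10:58351748-58393614), and in Zmiz1, a transcriptional coactivator of Notch and androgen receptor signalling (chr14:25470900-25517631). Among the clusters of 6 were those in Smad3, an effector of TGF-beta, in Elmo1 and Map3k1, both of signalling cascades, and in Ago2, a core protein of RNA silencing. Pde4d held the most members in its body, 22 over 1302 kb, then Gse1 with 19, Zmiz1 with 15, and Arid1b and Nav2 with 14 each. Per length, Zmiz1 held 7.18 members per 100 kb and Pde4d 1.69.

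A member lay within 100 kb of either end, or in the body, of 55.9% of the 21631 protein-coding genes. Against this, 25 of 30 HSC regulators and markers had one (83.3%, 95% interval 65.3 to 94.4), as did 18 of 20 myeloid genes (90%, 68.3 to 98.8), 17 of 20 lymphoid genes (85%, 62.1 to 96.8) and 13 of 14 immediate early genes with AP-1 (92.9%, 66.1 to 99.8). In 13 of 18 erythroid and megakaryocytic genes (72.2%, 46.5 to 90.3) and 10 of 13 genes of the fetal programme (76.9%, 46.2 to 94.96) the interval included 55.9%. Members per Mb of window came to 5.35 over all genes, 11.7 at HSC regulators, 11.97 at lymphoid genes, 10.6 at myeloid genes, 15.3 at immediate early genes, 10.1 at endothelial genes and 8.21 at stromal genes.

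Lists of other tissues were not all low. Members lay near 9 of 10 endothelial genes (90%, 55.5 to 99.7), 8 of 10 stromal genes, 8 of 10 neural regulators and 7 of 10 hepatocyte genes, all 4 with intervals that included 55.9%. Near T cell genes there were 2 of 9 (22.2%, 2.81 to 60.01), namely Zap70 and Cd5, with none near Cd3e, Cd4 or Cd8a. Of 19 genes of the type I interferon response 10 had a member (52.6%, 28.9 to 75.6), among them Irf1, Ifnar1 and Ifnar2, and none lay near Isg15, Stat2, Irf9, Ifit2 or Ifit3. Some genes of these lists, such as Pecam1, are also expressed in HSCs. Lists were compared with all genes by these counts alone.

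**Figure D4:**
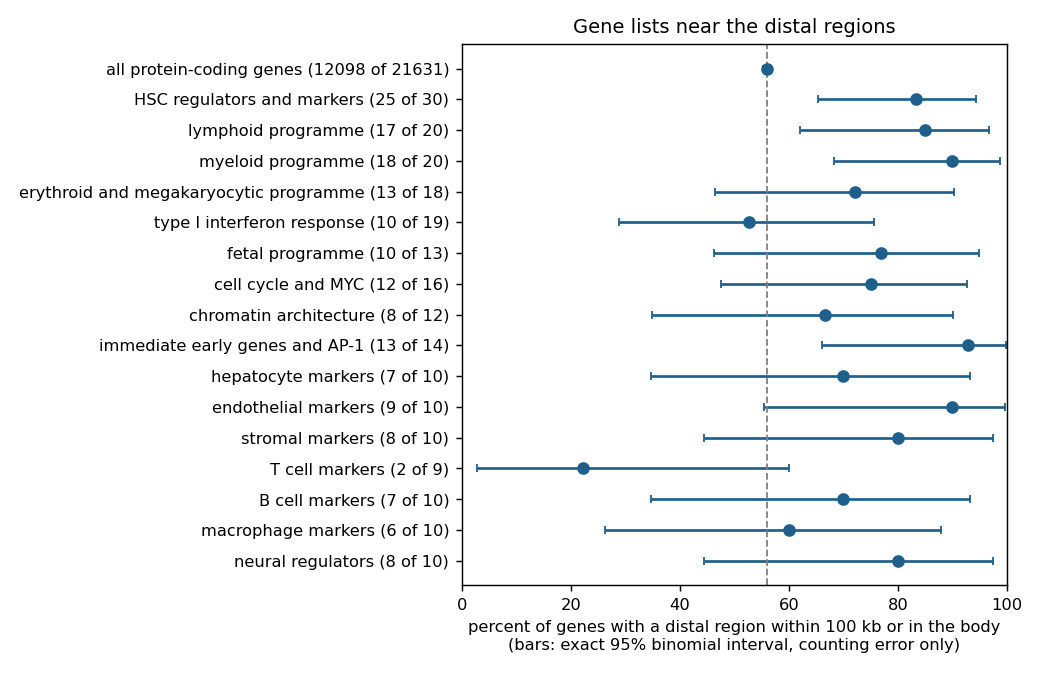
Percent of the genes of each list with a distal region within 100 kb or in the body, with exact 95% binomial intervals, and a dashed line at the 55.9% of all protein-coding genes. HSC regulators, lymphoid, myeloid and immediate early genes lie above the line with their whole interval, and T cell genes, at 22.2%, have an interval that includes it.

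Regulators of blood stem cells differed widely in the number of members around them. Within 100 kb of Runx1, the core-binding factor that blood formation needs, there were 10 members, then 7 at Cebpa and at Lmo2, 6 at Mecom, Ikzf1 and Erg, 4 at Gata2, 3 at Myb, 2 at Meis1, Kit, Spi1 and Irf8, and 1 at Hlf and Cdk6. No member lay within 100 kb of Tal1 or Myc. The windows include the gene and so differ in length, from 203 kb at Cebpa to 758 kb at Mecom. Per 100 kb of window, Cebpa held 3.45 members, Lmo2 3.13, Runx1 2.36, Ikzf1 2.08, Gata2 1.88, Erg 1.40, Mecom 0.791 and Hlf 0.393.

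At Runx1, the strongest member (chr16:92801366-92802046) lay in the body at 24.2 kb from the first RefSeq start, the distance of a known intronic enhancer of stem cells. Its percentiles were 92.0, 96.1, 95.1, 96.6 and 93.1 in fetal, P7 wild-type, P7 knockout, P14 and adult HSCs, and 87.4 to 96.5 in HPCs. The member at -58.2 kb (chr16:92883660-92884410) was at 65.7, 54.0, 41.3, 76.5 and 67.6 in the same HSC lists and at 86.9 to 98.0 in HPCs, with no overlap between the cell types. The member beyond the far end of the gene, 244 kb from the first start, was at 19.6 to 67.8 in HSCs and 34.0 to 81.6 in HPCs, and the cell types overlapped.

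At Cebpa, the regulator of granulocytes and monocytes, the strongest member (chr7:35156294-35157039) lay at 37.4 kb from the start, the distance of a known myeloid enhancer. It was at percentile 93.7, 82.7, 76.8, 88.9 and 94.9 in fetal, P7 wild-type, P7 knockout, P14 and adult HSCs and 88.7 to 95.9 in HPCs. The cell types overlapped, and the lowest value was that of the P7 knockout HSC list.

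At Gata2, a zinc finger factor of stem cells, a member at -76.9 kb (chr6:88116593-88117383) lay at the distance of a known haematopoietic enhancer. It was of middling to low rank, at 37.8, 35.7, 21.7, 74.7 and 42.9 in the HSC lists in the order above and 9.25 to 69.2 in HPCs. Its neighbour at -69.7 kb (chr6:88123584-88124571) was stronger, at 83.0 to 94.3 in HSCs and 74.2 to 92.1 in HPCs.

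Meis1, a homeobox factor that keeps HSCs quiescent, had its 2 members in the body at 48.8 and 93.8 kb from the start, with percentiles of 92.4 to 97.9 and 86.9 to 98.1 over all 12 lists. Hlf, a factor found chiefly in HSCs among blood cells, had 1 member at -27.1 kb (chr11:90417802-90418391), at 91.4 to 97.1 in HSCs and 91.3 to 98.2 in HPCs. Kit, the receptor for stem cell factor, had a member 156 kb from its start (chr5:75730398-75731289), at 93.4 to 99.2 over all lists. These 4 members were high in HSC and HPC lists alike, whereas the other member at Kit (chr5:75744523-75745175) was at 63.0 to 84.6.

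Erg, an ETS factor of HSCs, had 6 members. The one over the internal start printed above (chr16:95459054-95459785) was at 76.0, 64.0, 48.7, 76.7 and 64.7 in the HSC lists and 71.6 to 87.8 in HPCs. The member at 134 kb from the first start (chr16:95452286-95452870) was at 81.7 to 88.9 in HSCs and 61.1 to 76.9 in HPCs, with no overlap between the cell types.

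Ikzf1, a zinc finger factor of lymphoid cells, had its strongest member (chr11:11788468-11789062) beyond the gene, 103 kb from the first start, at 85.3 to 93.7 in HSCs and 87.8 to 94.0 in HPCs. Its upstream member at -28.6 kb (chr11:11656990-11657625) was at 85.5, 45.0, 56.4, 79.4 and 94.1 in the HSC lists and 88.3 to 95.1 in HPCs. Mecom, the HSC factor EVI1, held its 6 members inside the gene body with median percentiles from 53.3 to 72.6, and none was among the upper 10% in more than 1 list.

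The genes of the interferon receptor itself had members in all lists, the knockout included. The region between Ifnar2 and Ifnar1, at -20.2 kb from the Ifnar1 start (chr16:91464592-91465375), was at 89.3, 91.8, 88.2, 93.4 and 86.8 in fetal, P7 wild-type, P7 knockout, P14 and adult HSCs. In HPCs it was at 95.2 in wild type and 97.0 in the knockout at P7, and at 81.9 in adults. The labels do not say which part of which receptor gene was deleted, and these regions do not check it.

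**Figure D5:**
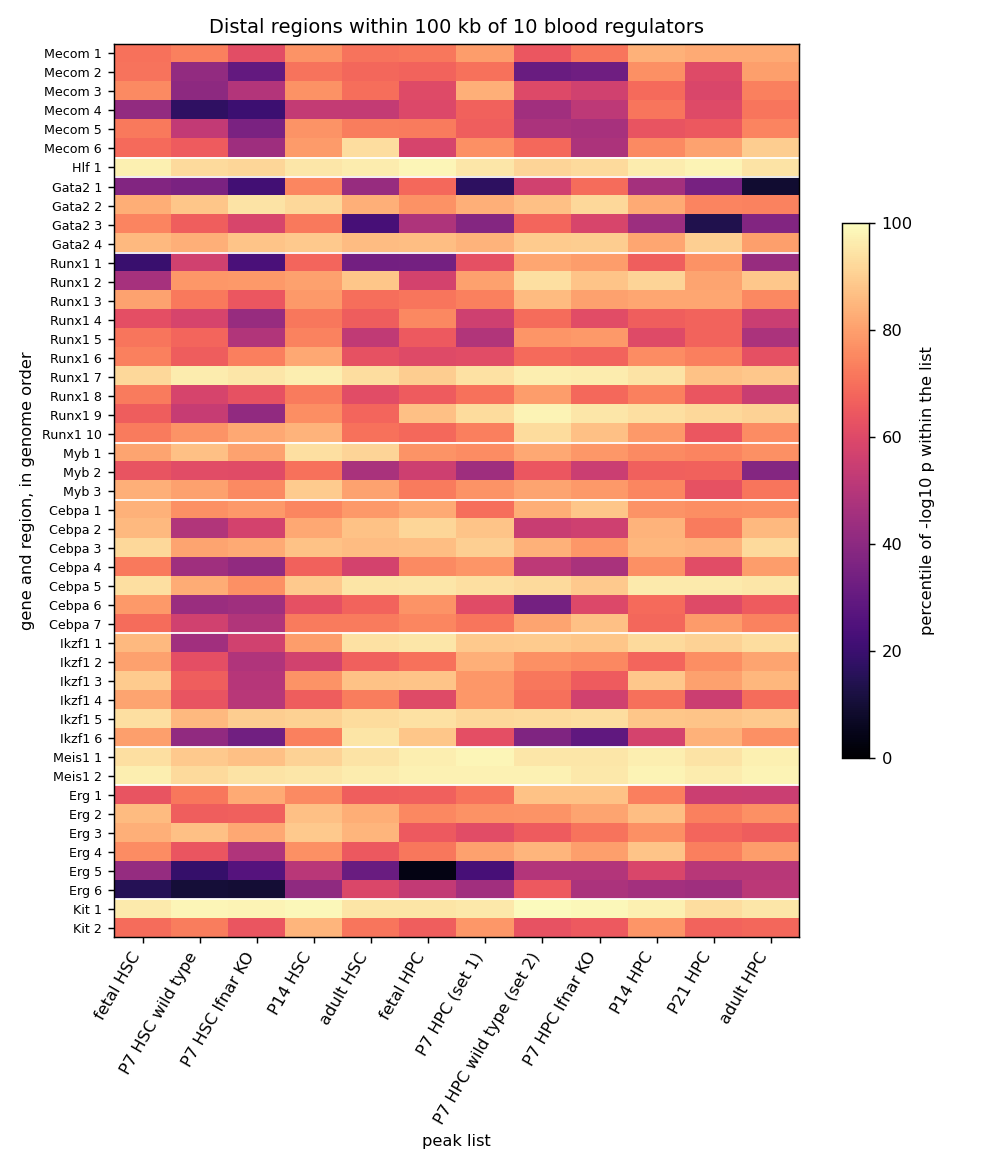
Percentile of -log10 p within each of the 12 lists (columns) for the distal regions within 100 kb of 10 blood regulators (rows, in genome order). The rows of Hlf and Meis1 are light throughout, between 86.9 and 98.2, whereas those of Gata2 and Erg range from 3.66 to 94.3.

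To compare cell types, ages and genotypes, members were placed from 0 to 100 among all 28974 regions called in every list, which gives each list the same regions. These comparisons were added after the lists had been seen. Members were set apart by cell type more often in the direction of HPCs than of HSCs. In 590 members (5.04%, 95% interval 4.65 to 5.45) every HPC list placed the region above every HSC list, beside 2.92% of all regions called everywhere and 1.48% (1.30 to 1.67) of the 17267 that were not members. The opposite held for 236 members (2.02%, 1.77 to 2.29), beside 1.44% of all and 1.04% (0.90 to 1.21) of the others. By fold over background the counts were 477 and 307, of which 322 and 126 were also in the first counts.

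Among members higher in HSCs, the one inside Mllt3 (chr4:87823227-87824068), a regulator of stem cell self-renewal, stood at places 81.6, 73.4, 66.1, 72.7 and 72.3 in fetal, P7 wild-type, P7 knockout, P14 and adult HSCs. In HPCs it was at 35.2 in the fetus and at 1.02 to 16.3 in the other 6 lists. The member with the widest gap lay inside Eef2k, a kinase of translation elongation (chr7:120874997-120876013), at 72.3 to 90.5 in HSCs and 3.90 to 27.7 in HPCs. Others with wide gaps lay near 1700010I14Rik and Gsdmc and inside Rbpms and Cd6, at 35.4, 32.7, 30.7 and 27.6 places between the lowest HSC and the highest HPC list.

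Among members higher in HPCs, the one inside Ankrd44 (chr1:54841748-54842158) stood at 0.343 to 11.6 in HSCs and 70.0 to 92.2 in HPCs. Among the others were those near Henmt1 and St3gal1, inside Tnr and near Rcbtb2, with gaps from 39.0 to 45.0 places. In each of these the HSC and HPC lists did not overlap, which is how they were picked.

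For age, fetal and adult lists of set 1 were compared in both cell types. In 719 members (6.14%, 5.71 to 6.59) the adult list was above the fetal list by over 20 places in HSCs and in HPCs, beside 3.63% of all regions called everywhere and 1.93% (1.73 to 2.14) of those that were not members. In 154 members (1.32%, 1.12 to 1.54) the fetal list was above by over 20 places in both, beside 2.05% of all and 2.55% (2.32 to 2.80) of the others. By fold the counts were 583 and 238. Descriptions of 3 of 5 adult HSC libraries and 1 of 3 fetal HPC libraries name another list. Across the members the difference of fetal minus adult had a Spearman's rho of 0.34 between HSCs and HPCs, with 4 separate lists and the same members.

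The member with the largest age gap lay near Gli3, a transcription factor of Hedgehog signalling (chr13:15845687-15846322). It was at 6.41 in fetal and 97.0 in adult HSCs, and at 13.2 in fetal and 94.8 in adult HPCs. In HPCs of set 1 the ages between were at 61.2 at P7, 44.5 at P14 and 55.1 at P21, and in HSCs the P14 list was at 8.33. The member near Irf2, a repressor of interferon signalling that HSCs need (chr8:46869386-46869970), was at 14.2 in fetal, 35.9 in P14 and 80.6 in adult HSCs, and at 13.5 in fetal and 83.2 in adult HPCs. Others higher in adults lay inside Ago2 and Fyn, near Psip1 and near the Notch ligand gene Dll1, with gaps of 65.6 to 78.3 places in the cell type with the smaller gap.

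Higher in the fetus was a member inside Gnas, which encodes a G protein subunit (chr2:174295033-174295955), at 74.6 in fetal and 1.21 in adult HSCs and at 84.8 in fetal and 23.0 in adult HPCs. A member inside Jmjd1c, a chromatin regulator (chr10:67182680-67182962), was at 56.4 and 0.989 in HSCs and 61.8 and 15.6 in HPCs. Of the 25 members within 100 kb of genes of the fetal programme, 18 stood higher in the fetus in HSCs and 16 in HPCs, beside 5217 and 4667 of all 11707 members. Their median difference of fetal minus adult was 11.1 places in HSCs and 4.23 in HPCs, and that of all members was -1.42 and -3.45. The 8 members near hepatocyte genes, a cell type of the fetal liver, also stood higher in the fetus, 6 of 8 in HSCs and 5 of 8 in HPCs, with medians of 4.77 and 9.31 places. Members near B cell genes had medians of 6.42 places in HSCs and -0.38 in HPCs, and those near endothelial genes -0.53 and 2.31. The part of other cell types in these differences was not tested.

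Knockout and wild type were compared at P7. The median size of the difference in place was 6.54 places in HSCs and 6.05 in HPCs. Both cell types differed by over 20 places in the same direction in 16 members with the knockout higher (0.137%, beside 0.117% of all regions called everywhere) and in 31 with the wild type higher (0.265%, beside 0.2% of all). By fold the counts were 48 and 65. The difference of knockout minus wild type had a Spearman's rho of 0.05 between HSCs and HPCs over the 11707 members.

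The type I interferon genes include those that the receptor induces, such as Irf7 and Usp18. Of the 26 members within 100 kb of genes of this list, the knockout was higher in 12 in HSCs and in 12 in HPCs, with median differences of -0.99 and -1.06 places. Over all 11707 members the knockout was higher in 6674 in HSCs and in 4525 in HPCs, with medians of 1.43 and -2.29. The widest gap with the wild type higher was at chr16:98081697-98082854, 64.9 kb from B230307C23Rik. This member was at 82.0 in wild-type and 8.40 in knockout HSCs and 79.3 and 24.6 in HPCs, with 78.3 to 87.7 in the other 8 lists. By fold, the smaller of its HSC and HPC gaps was under 20 places. The widest gap with the knockout higher was near Prdm15 (chr16:97778452-97779039), at 22.7 in wild-type and 55.5 in knockout HSCs and at 2.30 and 40.2 in HPCs.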

How the data were processed

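ATAC-seq libraries (35) of 12 groups were pooled by the authors into 1 narrowPeak list per group. Bowtie2 and MACS2 on mm10 (GRCm38) are named in the submitters' processing notes, without versions or settings. Each list as deposited holds, per peak, a display score, a ratio (fold over background), a -log10 p and a summit position, all the authors' own; the score was not used. Touching peaks on chromosomes 1 to 19 and X were merged, and each region was ranked by its strongest peak. Gene ends came from RefSeq (GRCm38, 21631 protein-coding genes without exons), so members are given as inside or outside gene bodies. Region sequence was not used here, and motifs were searched in RefSeq promoter windows in place of it, a change made after the data were seen. Groups came from the labels and lists from their names.

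The members, the 16 gene lists (224 of 228 symbols matched) and the rules for named members (highest and lowest median percentile, largest range, largest clusters, farthest, just inside the limits, and within 100 kb of chosen regulators) were chosen with earlier results of these data known. A few members that these rules name are not reported here. The rule for condition comparisons (widest gaps) was added later. With 1 list per group no test was made. Shares carry exact Clopper-Pearson intervals at 95%, which cover counting error only. The scripts were tested on simulated data. Python 3.11.15, numpy 2.4.6, pandas 2.3.3 and scipy 1.17.1 were used. Alternatives are given in the closing section.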

Additional observations from a re-analysis of the deposited data

How the results depend on the processing

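No paired analysis was possible because the replicates of each group were pooled into 1 list. The number of members (11707) stayed within 1.5 times under most settings, among them a required overlap of 50% (11692), summits within 150 bp (10350), another base list (11643 from P7 wild-type HSCs, 11515 from adult HSCs), and 1 other list left out in turn (11734 to 12577), or the P7 knockout HSC list left out with P7 wild-type HSCs as the base (13300). With only lists whose libraries' descriptions mostly name their own list, which left out those of P14 HSCs, adult HSCs, P14 HPCs and P21 HPCs, it was 12209, an alternative chosen after seeing the data, like the counts of strong or set apart members by fold and the settings on starts. It was 4329 over 50 kb from gene ends, 5438 outside gene bodies and 5132 with the upper 50% of each list. The median over lists of the members' median percentile, 75.9, was 78.2 by fold, 82.5 against distal regions only and 83.3 against peaks as deposited. The share in gene bodies was 52.4% over 20 kb from gene ends. A window of 50 kb gave 38.3% of genes near a member and 250 kb gave 79.1%, and clusters joined at 25 kb held 48.1% of members. By fold, the members set apart in the same direction in HSCs and HPCs numbered 48 in place of 16 (knockout higher), 65 in place of 31 (wild type higher) and 238 in place of 154 (fetus higher). The planned motif search in whole regions was not run. The cause of these shifts was not tested, except that fewer regions pass stricter limits. Depth per library is unknown, so the precision of a call in the shorter lists cannot be given.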

Other observations

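Non-coding genes other than lncRNAs were seldom near the distal regions. A miRNA gene had an end within 1 kb of 19 members, among them Mir342, a miRNA of blood cells, at a median percentile of 47.9, Mir193a at 29.4, Mir7b at 79.0 and Mir351 at 40.03. A tRNA gene was overlapped by 23 members, with a median percentile of 72.6, and an annotated pseudogene by 71. Bodies of lncRNAs held 1857 members (15.9%, 15.2 to 16.54), beside 13.7% (12.9 to 14.5) of narrow distal regions missing from some list.

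The share within 10 Mb of Ifnar1 was higher among the members set apart by genotype in both cell types than among all members. Ifnar1, a subunit gene of the interferon receptor, lies at chr16:91485032-91510523. Of the 47 members that differed by over 20 places in the same direction in HSCs and HPCs, 5 lay on chromosome 16, which held 4.06% of all members. Chromosomes 2 and 4 also held 5 each. All 5 on chromosome 16 were within 10 Mb of Ifnar1 (10.6%, 95% interval 3.55 to 23.1), beside 103 of all 11707 members (0.880%). These 5 lay near N6amt1, Sim2 and Prdm15, with the knockout higher, and near Eva1c and B230307C23Rik, with the wild type higher. The knockout minus wild-type differences were -73.6 and -54.6 places in HSCs and HPCs near B230307C23Rik and 38.3 and 24.2 near Sim2. These values are by -log10 p. By fold, the smaller of the HSC and HPC gaps was under 20 places near B230307C23Rik and near Sim2, so neither was set apart. That gap by fold was 20.1 places near N6amt1 and 33.8 near Prdm15. By fold, 10 of 113 members set apart in this way lay on chromosome 16, and 4 of the 113 lay within 10 Mb (3.54%, 0.973 to 8.82). The labels do not name the deleted gene. This count was made after the positions were seen, and what sets these members apart was not tested.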
